A study of Mus musculus with 3 samples.

Results

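Forkhead (Fox) genes encode transcription factors that bind DNA through a shared winged-helix domain, and a letter after the name gives the subclass. Here they were described in F9 cells, an established mouse line of embryonal carcinoma, the stem cells of teratocarcinoma, kept undifferentiated. Members were all probe sets with a single gene symbol made of Fox, a subclass letter from A to S and a number, without the proliferation factor Foxm1. The rule found 78 probe sets for 36 genes in 16 subclasses, of 34945 probe sets with 1 gene symbol and 18193 named genes. Forkhead genes without such a probe set were not analysed here.

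The samples were 3 replicates of total RNA from undifferentiated F9 cells, each on an Affymetrix Mouse Genome 430 2.0 array, with no treated, differentiated or other reference group. Per the labels' protocols, the culture dishes carried a 0.2% gelatin coat, the medium held 10% serum, and harvest was near 80% confluence. The series asks what these cells express, so each gene was tested for signal above background. Whether the replicates came from separate cultures is not in the labels; the p-values rest on the spread between these arrays alone, which may be technical.

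Several subclasses have well-known places in early development. FoxA proteins open chromatin at endoderm genes, FoxC and FoxF proteins act in mesoderm, Foxd3 in the epiblast and neural crest, and Foxh1 carries Nodal signals to DNA together with Smad proteins. FoxO proteins are kept out of the nucleus when insulin or growth factors activate the kinase Akt. FoxJ, FoxN and FoxP each hold broadly expressed members beside tissue-restricted ones, and both FoxK genes are found in most tissues.

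Background was set on each array at the 95th percentile of 127 probe sets for receptors of smell and taste, vomeronasal ones included, and for hair keratin-associated proteins. That threshold was a signal of 44.6, 46.1 and 43.2 on replicates 1, 2 and 3, where the median signal of all probe sets was 37.8, 37.8 and 36.04. Over all probe sets, log2 signals of 2 arrays correlated at 0.917 to 0.920. A gene, represented by its probe set with the highest mean signal, was called above background at a limma adjusted p under 0.05. Values below are linear signals in array units, and log2 values are distances from the threshold ± SE. Signal depends on probe affinity, so each gene was tested against the threshold. Differences between genes in signal or in distance from the threshold also reflect their probes. In bulk RNA, few cells with a transcript and little transcript per cell cannot be told apart.

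The line's label held against its markers. All 9 pluripotent stem cell markers were above background, with Pou5f1 at 6809 ± 279, Sox2 at 4794 ± 208 and Nanog at 4866 ± 392 (SD, n = 3). Of markers of other cell types, 1 of 9 for endoderm (Sox7), 1 of 7 for fibroblasts (Thy1) and 0 of 6 for neural cells passed limma's test; of the neural markers, 1 had an unadjusted p under 0.05, and 1 was over the threshold on each array. The endoderm list had 3 genes over the threshold on each array.

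F9 cells showed 15 of the 36 forkhead genes above background (41.7%), beside 51.1% of all 18079 named genes outside the background families. The same 15 had an unadjusted p under 0.05 (52.8% of named genes did) and were over the threshold on all 3 arrays (53.8% of named genes were). The 15 were Foxd3, Foxh1, Foxj2, Foxj3, Foxk1, Foxk2, Foxl2, Foxn2, Foxn3, Foxn4, Foxo1, Foxo3, Foxo4, Foxp1 and Foxp4. The family's median lay 0.49 below the threshold on the log2 scale (-0.49), and that of all named genes 0.72 above it. With the highest probe set of each gene, the lowest mean signal among called genes was 113 (Foxl2) and the highest among the rest 45.8 (Foxq1). With the mean of all probe sets Foxj2, Foxk1, Foxo4 and Foxl2 lay 0.31 to 0.55 log2 units above the threshold, and of these Foxl2 alone kept its call.

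**Figure D1:**
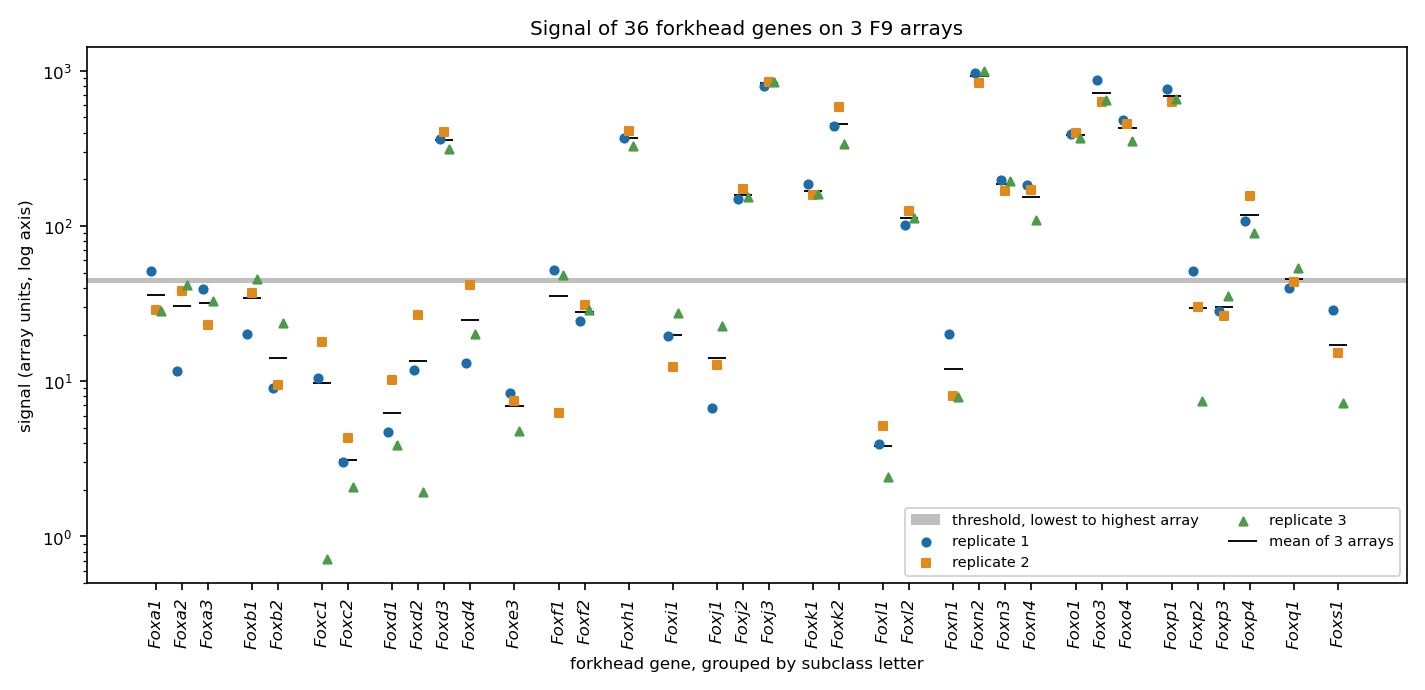
Signal (log axis) of the highest probe set of each of 36 forkhead genes on the 3 arrays, with the mean as a line and the span of the array thresholds as a grey band. The 15 called genes lie above the band on every array, with means from 113 to 928, and the other 21 have means from 3.13 to 45.8.

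Where the calls fell differed by subclass letter. Subclasses J, K, N, O and P held 12 called genes of 16, subclasses A to F 1 of 14 (Foxd3), and H, I, L, Q and S 2 of 6 (Foxh1 and Foxl2). These blocks of letters were formed after the values were seen and carry no test. Called genes came from 8 of the 16 subclasses. The subclasses without a called gene were A, B, C, E, F, I, Q and S, with 13 genes. That 0 of these 13 passed limma's test follows from how they were picked. By unadjusted p 0 passed as well, and 0 lay over the threshold on every array.

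The number of probe sets per gene moved with the calls. Of forkhead genes with 1 probe set, 2 of 16 (12.5%) were called, beside 36.1% of named genes of that kind. Of those with 2 or more, 13 of 20 (65%) were called, beside 66.2%, so the share there was close to that of other genes. With 4 or more probe sets it was 4 of 5, beside 79.6%. The letter blocks differed in this respect: J, K, N, O and P had 50 probe sets for 16 genes, and A to F 18 for 14. Among genes with 2 or more probe sets, 11 of 13 were called in J, K, N, O and P and 2 of 7 in all other subclasses. The part of probe set number in the split was not tested.

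**Figure D2:**
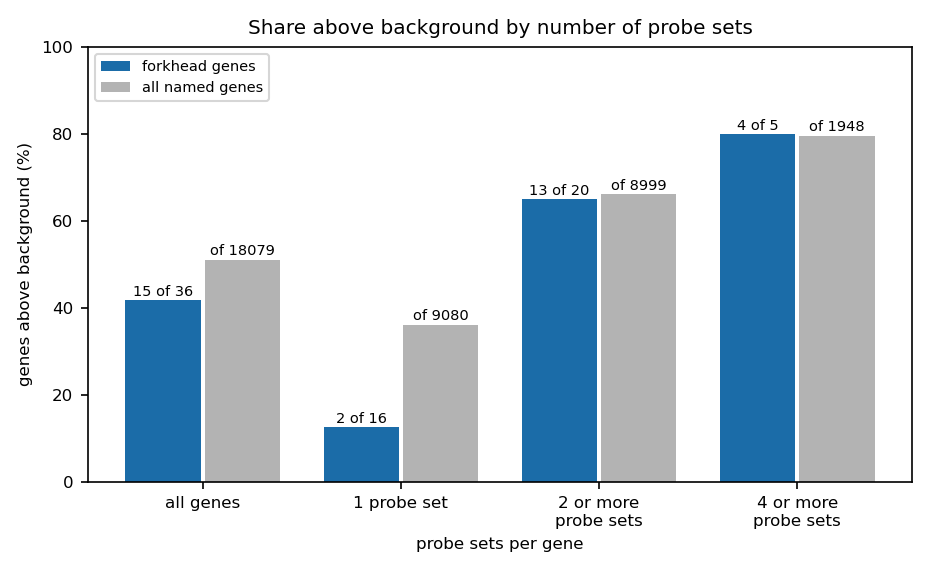
Percentage of genes above background (bars start at 0) among forkhead genes (blue, with counts) and all named genes (grey, with the number tested), by probe sets per gene. The bars are close for genes with 2 or more probe sets (65% and 66.2%) and apart for genes with 1 (12.5% and 36.1%).

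Promoter sequence was looked at from RefSeq starts, 250 bases before to 50 after, on GRCm38.p6. Only 24 of the 36 members (66.7%) matched an entry, under the 80% set for a check over the family, so any summary of base composition over called and other genes is void. Single promoters can still be shown. Foxd3, the called member of its subclass, and Foxd1, a member that was not called, are printed with each CpG in capitals, as is Foxn3, a called gene with few CpGs. Foxd3 (chr4:99656049-99656348, plus strand) held 25 CpGs, Foxd1 (chr13:98353995-98354294, plus strand) 15, and Foxn3 (chr12:99450025-99450324, minus strand) 6. Foxn3 does not stand for the called genes, of which Foxn4 held 22 and Foxk2 59, while 1 Foxp1 promoter held 5. The other FoxD promoters, of the uncalled genes Foxd2 and Foxd4, held 26 and 12. With 1 called gene in the subclass, a relation of CpG number to the call cannot be read and was not tested.
Foxd3: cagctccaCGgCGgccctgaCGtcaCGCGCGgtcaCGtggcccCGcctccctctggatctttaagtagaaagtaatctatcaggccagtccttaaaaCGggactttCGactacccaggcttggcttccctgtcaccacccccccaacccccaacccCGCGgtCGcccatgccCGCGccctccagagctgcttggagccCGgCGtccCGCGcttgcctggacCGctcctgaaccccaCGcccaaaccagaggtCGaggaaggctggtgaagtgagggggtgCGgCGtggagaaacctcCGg
Foxd1: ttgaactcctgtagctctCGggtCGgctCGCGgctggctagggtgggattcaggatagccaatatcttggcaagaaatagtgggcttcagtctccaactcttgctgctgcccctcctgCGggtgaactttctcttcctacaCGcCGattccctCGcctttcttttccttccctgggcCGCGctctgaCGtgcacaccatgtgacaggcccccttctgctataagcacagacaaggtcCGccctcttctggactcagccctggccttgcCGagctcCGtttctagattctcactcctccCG
Foxn3: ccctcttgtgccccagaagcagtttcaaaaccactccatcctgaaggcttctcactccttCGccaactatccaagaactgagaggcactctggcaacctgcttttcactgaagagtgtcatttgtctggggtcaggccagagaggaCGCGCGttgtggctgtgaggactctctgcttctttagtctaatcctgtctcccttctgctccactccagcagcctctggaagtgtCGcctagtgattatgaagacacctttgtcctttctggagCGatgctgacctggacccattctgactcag
The forkhead motif GTAAACA, searched on both strands, was found in 1 of the 29 forkhead promoters (3.45%) and in 3.65% of all 32851 promoters. The single match was in Foxa1 (chr12:57546062-57546361, minus strand), shown with the motif in capitals.
Foxa1: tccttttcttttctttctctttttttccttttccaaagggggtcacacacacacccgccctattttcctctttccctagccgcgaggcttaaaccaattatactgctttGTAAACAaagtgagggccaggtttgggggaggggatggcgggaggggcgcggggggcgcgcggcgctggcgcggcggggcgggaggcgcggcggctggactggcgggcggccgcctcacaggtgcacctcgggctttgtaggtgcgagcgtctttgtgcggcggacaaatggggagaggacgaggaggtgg
The Foxh1 motif TGTGGATT, on both strands, was in 0 of the 29 and in 0.855% of all promoters. These letters describe the windows and say nothing of binding. With 24 of the 36 members matched, under the 80% set above, the motif shares are no check over the family either.

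The forkhead factors of the pluripotent epiblast and of Nodal signalling were both above background. Foxd3, a repressor needed in the epiblast and in stem cells, had signals of 363, 405 and 312 on replicates 1, 2 and 3. All 3 arrays stood far above the threshold, by 3.00 ± 0.12 log2 units (limma, adjusted p = 0.000247). Foxh1, the DNA-binding partner of Smad2 and Smad3, had signals of 370.0, 407 and 329, or 3.04 ± 0.12 log2 units over the threshold (limma, adjusted p = 0.000210). Its other 2 probe sets were also called, at means of 290 ± 104 and 221 ± 23.3, which made Foxh1 the one forkhead gene with several probe sets in which every probe set passed. The less steady of these read 244, 408 and 216, with replicate 2 well above the others.

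The surroundings of Foxh1 were largely above background too, in 11 of 14 measured partners and targets, beside 51.1% of all named genes. The signal transducers Smad2 (896 ± 27.5), Smad3 (127 ± 11.1) and Smad4 (1982 ± 146) passed. The mesendoderm genes Gsc (11.9 ± 11.8), Mixl1 (13.7 ± 8.17) and Lhx1 (25.3 ± 14.5), which Nodal signalling can induce, did not. Other genes of the list passed, among them Nodal (1347 ± 96.1), Lefty1 (2619 ± 233), Lefty2 (1186 ± 34.9) and Eomes (470 ± 31.7). These were chosen after their values were seen. Of the Foxd3 list, made of Groucho co-repressors and neural crest genes, 4 of 13 passed and 6 exceeded the threshold on all arrays. The co-repressors Tle1 (201 ± 36.6), Tle3 (1059 ± 97.6) and Tle4 (1796 ± 269) passed, and Tle2 (26.2 ± 11.3) did not. The fourth was Erbb3 (354 ± 33.4), a receptor of neural crest and epithelia, whose call ended with the mean of all its probe sets (0.40 log2 units; limma, adjusted p = 0.415).

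All 3 measured FoxO genes were above background. Foxo1 had signals of 391.6, 396 and 367, the most even of the FoxO genes across arrays, at 3.11 ± 0.11 log2 units (limma, adjusted p = 0.000171). Foxo3 had 870.3, 628 and 649, with replicate 1 highest, at 3.99 ± 0.16 (limma, adjusted p = 0.000238). Foxo4 had 481, 455 and 352, with replicate 3 lowest, at 3.25 ± 0.14 (limma, adjusted p = 0.000280). These factors drive cell cycle arrest, stress resistance and gluconeogenesis genes when Akt is inactive. The signal measures RNA only and does not show where in the cell the proteins were.

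Each FoxO gene also had a probe set that was not called. Foxo1 had 3 of 4 above background, with the fourth at a mean of 7.59 ± 1.97. Foxo3 had 2 of 3, with the last at 63.3 ± 18.4, 0.46 log2 units over the threshold. Foxo4 had 1 of 2, the other at 8.13 ± 2.78. With the mean log2 of all its probe sets in place of the highest, Foxo4 lost its call, at 0.37 log2 units (limma, adjusted p = 0.0742), while Foxo1 and Foxo3 stayed above background.

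Regulators of FoxO proteins were nearly all above background, 21 of 22 measured. The share of all named genes was 51.1%, and 66.2% for those with 2 or more probe sets. The regulators had a median of 5.19 log2 units over the threshold, against 0.72 for all named genes. They included the phosphoinositide 3-kinase genes Pik3ca (190 ± 30.5), Pik3cb (170 ± 12.2) and Pik3r1 (118 ± 30.7). Leaving out replicate 2 ended the call of Pik3r1 (limma, adjusted p = 0.0566). The call of Pik3ca ended with the mean of all its probe sets (limma, adjusted p = 0.0969). The exception was Sgk3 (75.3 ± 28.8), an Akt-like kinase, at 0.69 log2 units (limma, adjusted p = 0.1002). Of genes known as FoxO targets in various tissues, 18 of 24 passed (51.1% of all named genes did). The cyclin-dependent kinase inhibitors Cdkn1b (715 ± 21.2) and Cdkn1a (241 ± 32.0) and the cyclin Ccng2 (226 ± 2.33) were among them. Irs2 (30.3 ± 11.2) and Insr (67.7 ± 19.7), of insulin signalling, and Fbxo32 (27.6 ± 7.31), of muscle atrophy, were not. G6pc, Pck1 and Igfbp1 were not called either. Trim63, another gene of muscle atrophy, was called (98.2 ± 18.1; limma, adjusted p = 0.00805).

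Both FoxK genes, repressors found in most tissues, were above background. Foxk1 had signals of 186, 159 and 161, at 1.92 ± 0.12 log2 units (limma, adjusted p = 0.000718). Only 1 of its 3 probe sets was called; the others had means of 56.4 ± 8.69 and 21.6 ± 12.9, and the mean over all of them lay at 0.31 log2 units (limma, adjusted p = 0.161). Foxk2 had signals of 443, 584 and 338, at 3.32 ± 0.19 (limma, adjusted p = 0.000544). The Foxk2 arrays spanned 0.79 log2 units, the widest range of any called forkhead gene. Its second probe set was steadier, at 420, 427 and 399. In all, 3 of the 5 Foxk2 probe sets were called. The 2 that were not read 73.4, 89.6 and 47.3, and 40.3, 65.9 and 80.3, and varied more between arrays on the log2 scale than the called ones. All 9 measured partners of FoxK proteins were above background, beside 51.1% of all named genes. Among these partners were the deubiquitinase Bap1 (1402 ± 45.1) and its cofactors Asxl1 (788 ± 18.8) and Asxl2 (269 ± 27.5).

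**Figure D3:**
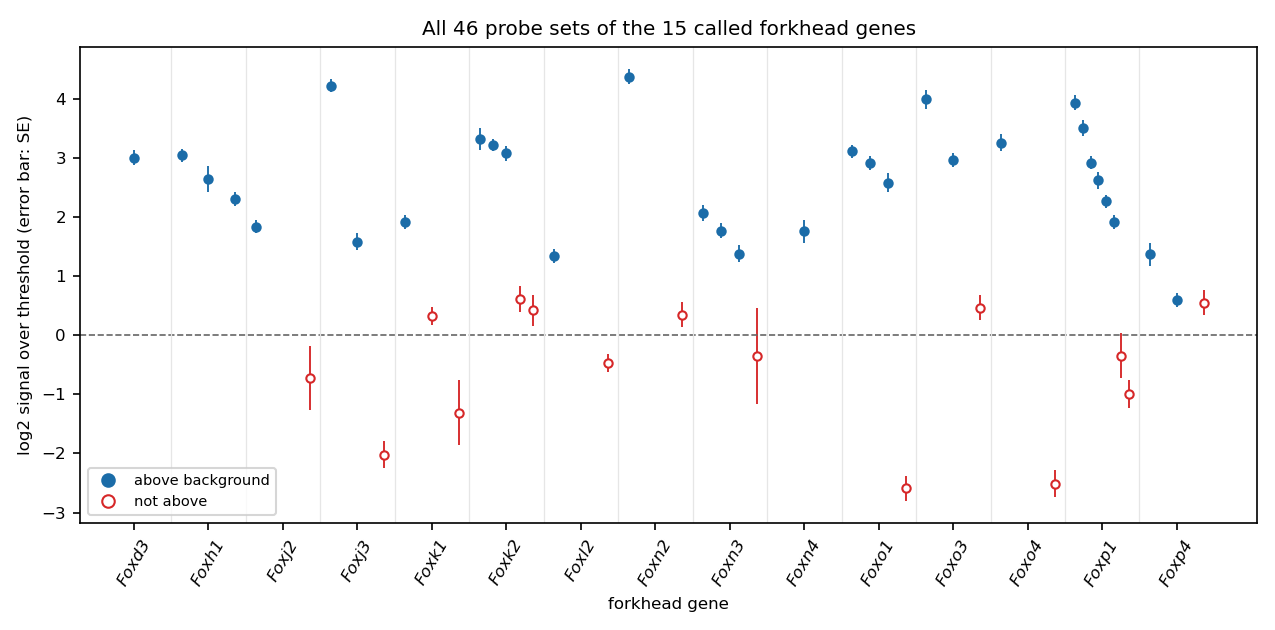
Distance from the threshold (log2, error bars are SE of the limma fit over 3 arrays) of all 46 probe sets of the 15 called forkhead genes; filled points were called and open points were not. In 12 of the 15 genes at least 1 probe set was not called, 15 probe sets in all.

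Of the FoxJ genes, the broadly expressed Foxj2 and Foxj3 were above background and Foxj1, the switch gene of motile cilia, was not. Foxj3 had signals of 797, 850 and 852, which differed by 0.097 log2 units, the narrowest range of any called forkhead gene, and lay 4.22 ± 0.11 log2 units over the threshold (limma, adjusted p = 0.000121). Its second probe set was called at 134 ± 16.7 and the last was not, at 11.4 ± 3.48. Foxj2 had signals of 150, 173 and 154, at 1.83 ± 0.11 log2 units (limma, adjusted p = 0.000632). Its other probe set read 12.2, 63.5 and 25.2, over the threshold on replicate 2 alone. With the mean of both probe sets Foxj2 was not called (0.55 log2 units, limma, adjusted p = 0.162).

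Foxj1 had signals of 6.70, 12.7 and 22.7, all under the threshold. Among genes of motile cilia 3 of 13 passed: the regulators Rfx2 (185 ± 15.5), Rfx3 (73.9 ± 13.1) and Myb (196 ± 14.2). All the measured structural genes of the axoneme on the list, such as Dnah5 (28.7 ± 11.2) and Tekt1 (39.1 ± 7.99), chosen after their values were seen, were not above background. Leaving out any single array ended the call of Rfx3 (limma, adjusted p from 0.0657 to 0.0985). With the mean of all probe sets Rfx2 and Rfx3 lay under the threshold, at -0.39 and -0.056 log2 units.

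The FoxN genes Foxn2, Foxn3 and Foxn4 were above background, and Foxn1, the gene of thymic epithelium and hair whose loss causes the nude phenotype, was not. Foxn2 had signals of 964, 828 and 991, at 4.37 ± 0.13 log2 units (limma, adjusted p = 0.000147). Its second probe set stood near the threshold at 58.0 ± 14.8 and was not called. Foxn3, a checkpoint-linked repressor, had signals of 199, 167 and 195, at 2.06 ± 0.13 (limma, adjusted p = 0.000738). It had 3 of 4 probe sets called, and the fourth read 8.99, 105 and 44.8, so that the arrays disagreed on it. Foxn1 had signals of 20.2, 8.02 and 7.91 on its higher probe set.

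Foxn4, which directs amacrine and horizontal cells in the retina and interneurons in the spinal cord, was above background from a single probe set. Its signals were 183, 171 and 109, with replicate 3 lowest but still over the threshold, at 1.76 ± 0.20 log2 units (limma, adjusted p = 0.00346). Foxd3 was the other called forkhead gene that had only 1 probe set.

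FoxP proteins bind DNA as dimers formed through a leucine zipper, and 2 of 4 members were above background. Foxp1 had signals of 764, 625 and 662, at 3.93 ± 0.13 log2 units (limma, adjusted p = 0.000165). It had the most probe sets of the family, 8, of which 6 were called with means from 169 to 684, and 2 were not (38.7 ± 18.5 and 23.1 ± 7.94). Foxp1 is known for a splice form made in pluripotent cells; the probe sets were not assigned to isoforms, so these signals do not tell the forms apart. Foxp4, known from lung and gut, had signals of 108, 155 and 90.6, at 1.36 ± 0.19 (limma, adjusted p = 0.00646). All 3 Foxp4 probe sets exceeded the threshold on every array and 2 of them were called.

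Foxp2 and Foxp3 were not above background. Foxp2, known from neural circuits of speech and song, had 6 probe sets, of which limma called 0, also by an unadjusted p under 0.05 or by all arrays over the threshold; their means ran from 2.84 to 29.6, and the highest read 51.0, 30.2 and 7.503. Foxp3, the master gene of regulatory T cells, had signals of 28.3, 26.2 and 35.4. Of FoxP partners 8 of 10 passed, beside 51.1% of all named genes. The co-repressors Ctbp1 (1685 ± 94.4) and Ctbp2 (4473 ± 230) and the NuRD subunit Gatad2a (2689 ± 250) passed. The lung and thyroid factor Nkx2-1 (13.7 ± 9.45) and the blood factor Runx1 (57.3 ± 4.95; limma, adjusted p = 0.0565) did not.

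Foxl2, the factor that maintains ovarian granulosa cells, was above background and its subclass partner Foxl1, of gut mesenchyme, was not. Foxl2 had signals of 101, 124 and 113, all over the threshold, at 1.34 ± 0.12 log2 units (limma, adjusted p = 0.00190). That was the called value nearest to the threshold. Its other probe set was not called, at 32.5 ± 6.63, and the mean of both kept the call at 0.43 log2 units (limma, adjusted p = 0.0332). Foxl1 had signals of 3.96, 5.16 and 2.42. Granulosa genes passed in 2 of 8 cases, Fst (88.7 ± 23.7) and Inhbb (1052 ± 107), both of which act in activin signalling in many tissues. The call of Fst ended on leaving out replicate 2 (limma, adjusted p = 0.0837) or replicate 3 (0.105). Amh (4.08 ± 0.289) and Fshr (17.5 ± 16.5), defining genes of granulosa cells, did not pass.

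The 3 FoxA genes, the pioneer factors of endoderm and liver, were not above background. Foxa1 had signals of 50.9, 28.8 and 28.5, over the threshold on replicate 1 alone. Foxa2 had 11.6, 38.3 and 41.5, under the threshold on every array. Foxa3 had 39.4, 22.9 and 33.0, likewise under it. By limma 0 of the 3 passed, 0 by unadjusted p under 0.05, and 0 were over the threshold throughout. Each has a single probe set.

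Of 12 measured genes on a list of other endoderm genes, 1 passed, the homeobox gene Hhex (162 ± 11.7), and 4 exceeded the threshold on all arrays. The 12 lay from -2.68 (Cer1) to 1.86 (Hhex) log2 units from the threshold. The endoderm marker Sox7 (889 ± 106), not on this list, was called at 4.31 log2 units (limma, adjusted p = 0.000129). The markers Pdgfra and Apoa1, also outside the list, were not called. Gata4 (52.8 ± 17.7), Gata6 (57.5 ± 3.95) and Sox17 (69.7 ± 18.6) did not pass, with limma adjusted p of 0.581, 0.0508 and 0.0735. The liver and yolk sac products Afp (16.8 ± 20.2), Alb (30.9 ± 29.7) and Ttr (24.4 ± 10.4), chosen after their values were seen, lay under the threshold on average. Of the 13 alternatives, 7 gave a count of 2 to 4, and the threshold at the 90th percentile gave 4. The FoxA genes were called under none of them.

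**Figure D4:**
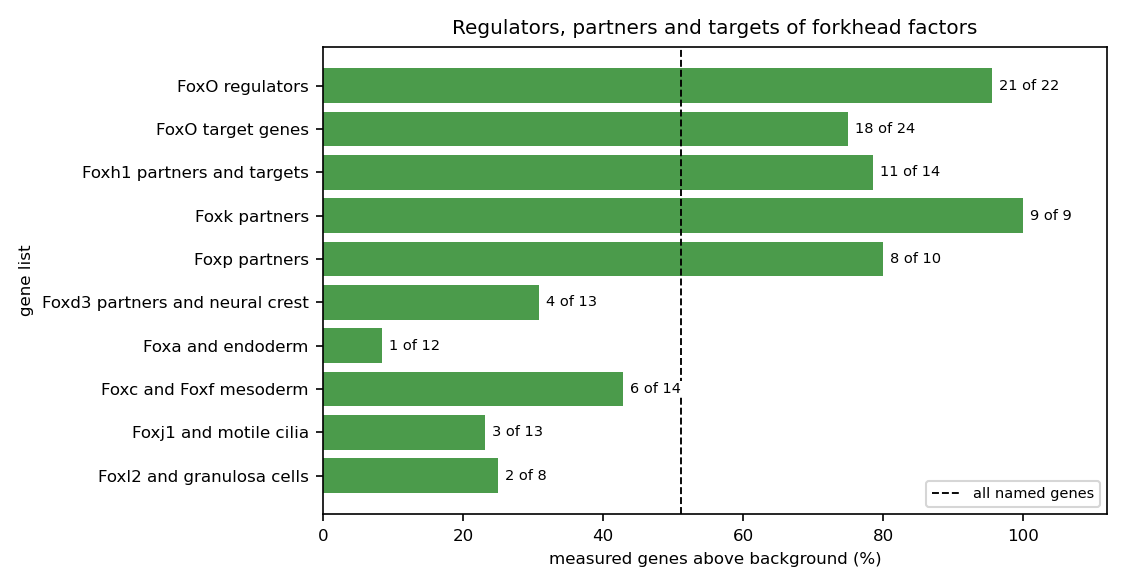
Percentage of measured genes above background (bars start at 0) in 10 lists of regulators, partners and targets of forkhead factors, with counts; the dashed line is the 51.1% of all named genes. FoxK partners stand at 9 of 9 and FoxO regulators at 21 of 22, and the endoderm list at 1 of 12. The lists were not matched to all named genes for probe sets per gene. Of named genes with 2 or more probe sets 66.2% were called, and with 4 or more 79.6%.

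FoxC and FoxF genes, which pattern paraxial and lateral mesoderm, were not above background. Foxc1 read 10.5, 17.9 and 0.717 on its higher probe set, and Foxc2 read 3.01, 4.30 and 2.07. Foxf1 was uneven, at 51.8, 6.204 and 48.4, with replicates 1 and 3 just over the threshold and replicate 2 far under it. Without replicate 2 it lay at 0.19 log2 units and was not called (limma, adjusted p = 0.402); the second Foxf1 probe set was even across arrays at 24.3 ± 1.61. Foxf2 read 24.4, 30.8 and 28.6. By limma 0 of these 4 genes passed, 0 by unadjusted p under 0.05, and 0 were over the threshold throughout.

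The mesoderm list gave 6 of 14 genes above background (42.9%), beside 51.1% of all named genes. Tcf15 (1969.9 ± 440.3), a paraxial mesoderm factor, passed, as did the Hedgehog effectors Gli1 (148 ± 29.4) and Gli2 (1002 ± 81.2). Tbx6 (17.0 ± 6.15), Meox1 (15.7 ± 11.8) and Mesp1 (60.7 ± 12.2) did not.

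The FoxB, FoxD, FoxE, FoxI, FoxQ and FoxS genes other than Foxd3 were not above background. The brain and spinal cord genes Foxb1 (34.3 ± 12.9) and Foxb2 (14.1 ± 8.38) were not called. Foxd1, of kidney stroma and retina, read 4.74, 10.1 and 3.86. Foxd2 read 11.9, 26.6 and 1.92, and Foxd4, of early neural ectoderm, 13.05, 41.4 and 20.03. Thus 1 of the 4 FoxD genes passed, with all 3 arrays of Foxd3 over the threshold and all arrays of Foxd1, Foxd2 and Foxd4 under it.

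The lens gene Foxe3 (6.88 ± 1.87) and Foxi1 (19.8 ± 7.70), of inner ear and kidney ion-transporting cells, were also not called. Nor was Foxs1 (17.0 ± 10.9). Foxq1, a hair and epithelial gene, came nearest to the threshold of all uncalled members, at 40.1, 43.6 and 53.7 and 0.028 ± 0.16 log2 units (limma, adjusted p = 0.983). Only 5 of the 21 uncalled genes exceeded the threshold on any array.

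Members that lie next to each other in the genome were not called. On GRCm38.p6, with fewer than 3 protein-coding genes between them, Foxq1, Foxf2 and Foxc1 neighbour each other on chromosome 13, Foxd2 and Foxe3 on chromosome 4, and Foxf1, Foxc2 and Foxl1 on chromosome 8. Of these 8 genes, 0 were called by limma, 0 by unadjusted p under 0.05, and 0 were over the threshold throughout. Of the 28 members without such a neighbour 15 were called, and of all named genes 51.1%. All 8 lie in subclasses outside J, K, N, O and P. Of the 20 members of those other subclasses only 3 were called, so position and subclass cannot be told apart here.

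The spread between arrays was small where genes were called. That is partly built in, since a call needs a small spread relative to the distance from the threshold. The median SD of called forkhead genes was 0.15 on the log2 scale, beside 0.12 for all called named genes. For uncalled genes it was 0.73 in the family and 0.72 in all named genes. Replicate 3 was the lowest array for 7 of the 15 called forkhead genes (46.7%), as it was for 40.5% of all called named genes. Adjusted p-values of the 15 calls ran from 0.000121 to 0.00646 by limma.

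At the level of probe sets, 31 of 78 (39.7%) were above background, beside 45.2% of all probe sets with 1 gene symbol outside the background families. Called genes held 46 probe sets, 15 of them not called, and the 21 other genes held 32, of which 0 passed limma's test, 0 had an unadjusted p under 0.05 and 0 were over the threshold throughout. Among the 20 genes represented more than once, 12 had both called and uncalled probe sets, 1 had all called and 7 had none.

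**Figure D5:**
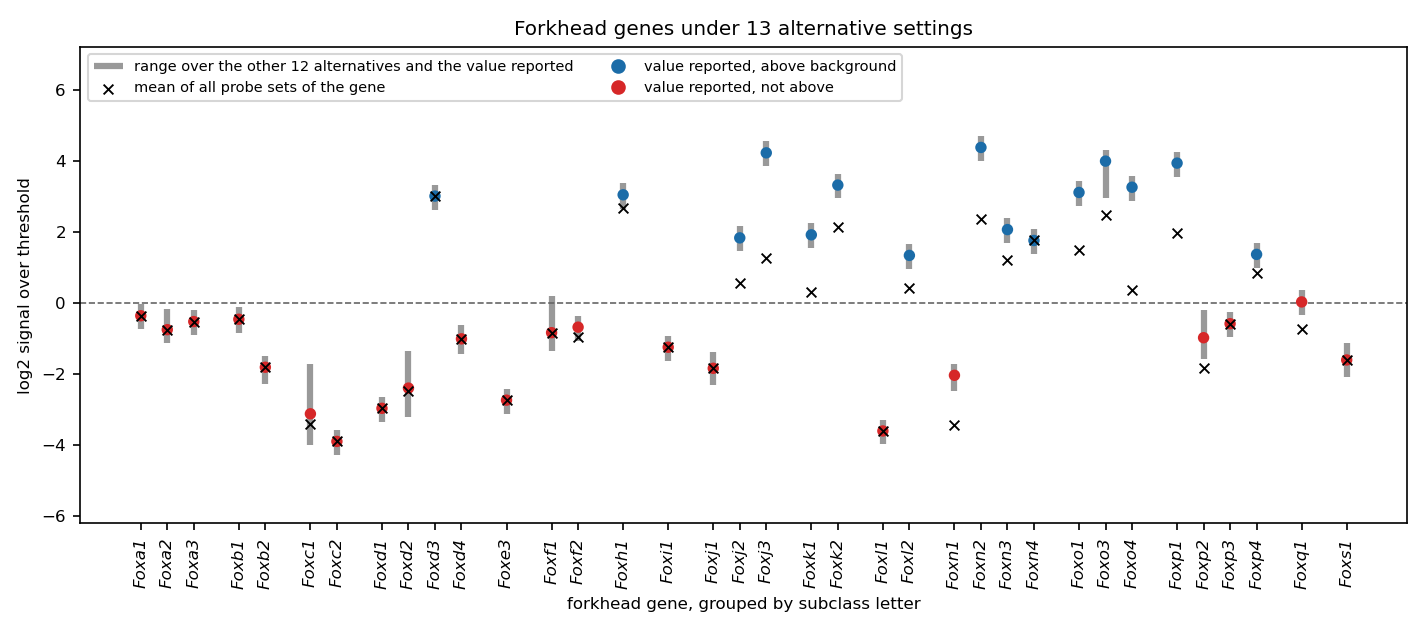
Distance of each forkhead gene from the threshold (log2) as reported (points), its range over 12 alternative settings (grey bars) and its value as the mean of all its probe sets (crosses). The crosses fall below the points for genes with several probe sets, and Foxj2, Foxk1 and Foxo4 then lose their calls at 0.55, 0.31 and 0.37.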

How the data were processed

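RNA from 3 replicates of F9 cells was measured on Affymetrix Mouse Genome 430 2.0 arrays. The authors deposited 1 signal intensity per probe set and array, on a linear scale, made with GCOS 1.4, per the submitters' processing notes; the signal algorithm is not given in the sources used here. All arrays had a trimmed mean signal of 250.0 after 2% was trimmed at each end, so they had been scaled, and no further normalization was applied. Symbols came from a 2016 platform annotation, and RefSeq (GRCm38.p6) held the same symbol for all 36 members. Log2 signal minus log2 threshold was fitted over all 45101 probe sets by an intercept-only model in limma 3.58.1 (R 4.3.3; eBayes, 1-sided test for values over 0, Benjamini-Hochberg adjustment). The 64 control probe sets name no gene. The fit was tested on simulated data. The number of arrays limits the precision. A further gene list is not reported here. Members and lists were chosen with earlier results of these data known. Every member is named. From each list the first 3 measured genes and up to 3 genes whose call differs from most of the list are named. A few further listed genes are named, chosen after their values were seen. Alternatives were other thresholds, background families, normalization, filters, variance priors, probe set rules and each replicate left out.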

Additional observations from a re-analysis of the deposited data

How the results depend on the processing

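The count of 15 forkhead genes above background, and the same 15 genes, were found under 12 of 13 alternatives: thresholds at the 90th and 99th percentiles, olfactory receptors alone, quantile normalization, the dimmest probe sets left out (30 of 36 genes then tested), a trended variance prior, no test, each replicate left out, the probe set chosen by suffix, and no _s_at or _x_at probe sets. With the mean of all probe sets it was 12 of 36 (33.3%), without Foxj2, Foxk1 and Foxo4. Of all named genes, 43.5% were called with that mean, beside 51.1% as reported. With the dimmest probe sets left out, 50% of the forkhead genes tested were called, beside 62.6% of named genes. The 21 other genes were called under none. The count of probe sets ran from 28 to 35, and from 30 to 32 with any 1 replicate left out. The listed regulators, partners and targets ran from 75 to 93 of up to 139 (83 as reported), and from 79 to 81 with any 1 replicate left out. Rfx2 and Rfx3 moved under the threshold with the mean of all probe sets (-0.39 and -0.056 log2 units); that mean includes their dimmer probe sets. The count of the granulosa list (2 as reported) fell to 1 with the mean of all probe sets, the 99th percentile, or replicate 2 or 3 left out. It rose to 3 with the 90th percentile, the trended variance prior or no test. The count of the motile cilia list (3 as reported) fell to 1 with the mean of all probe sets. It fell to 2 with the 99th percentile or any 1 replicate left out. Of the genes named as not above background, Gata6, Sox17, Runx1, Sgk3, Insr and Mesp1 were called under some alternatives. No paired analysis was possible because the samples form 1 group. Background correction could not be varied, since probe-level values were not used here.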

Other observations

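Probe sets of 2 related transcripts outside the rule were not above background. The antisense RNA gene Foxl2os, beside the called gene Foxl2, had signals of 7.04, 23.0 and 19.4 on replicates 1, 2 and 3 (limma, unadjusted p = 0.985). A probe set annotated to both Foxo3 and Gm38485 had signals of 13.4, 58.5 and 24.9, over the threshold on replicate 2 alone (limma, unadjusted p = 0.889).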
